A study of Mus musculus with 6 samples.

Results

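Neuropeptide precursors are secretory proteins that neurons cut into short signalling peptides. The 10 genes described here were Oxt, Avp, Trh, Pomc, Pmch, Npy, Cck, Adcyap1, Pdyn and Cartpt, of 55604 identifiers in the count tables. They were taken from a list drawn up with earlier results of these libraries known and thus chosen by the 4-AP and control counts themselves, so their differences between the groups are given as a description without a test. The libraries came from C57BL/6 mouse brain: 3 from mice given 4-aminopyridine (4-AP) into the peritoneum and 3 from untreated mice. 4-AP blocks voltage-gated potassium channels, and the design text of the series names it as the inducer of status epilepticus, a prolonged seizure state. RNA of both groups had been digested with RNase R, which removes linear RNA, before the libraries were made. The labels give neither the part of the brain, the age of the mice nor the time from injection to sampling, and they do not say whether each library came from a separate animal.

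A precursor is made with a signal peptide, enters dense-core vesicles, and is cut at pairs of basic residues by prohormone convertases; many of the peptides are then amidated at their end. In the hypothalamus, oxytocin and vasopressin are made by large neurons that project to the posterior pituitary. Thyrotropin-releasing hormone controls the anterior pituitary, and melanin-concentrating hormone (MCH, from Pmch) is made in the lateral hypothalamus. Pomc is made by arcuate neurons and, at far higher levels, by pituitary cells. Neuropeptide Y, cholecystokinin, PACAP (from Adcyap1), dynorphin (from Pdyn) and CART peptide (from Cartpt) are made in many regions, cortex and hippocampus among them, and Npy and Cartpt in the arcuate nucleus as well. Seizure activity is known to alter the expression of several of these genes in the rodent hippocampus, Npy and Pdyn among them.

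The sequences of Oxt and Avp bear on how far their reads can be told apart, and so do the copies of the hormone inside Trh on what a read of it covers. Oxt and Avp are neighbours on chromosome 2 (mm10), Oxt at 130576173 to 130577054 on the plus strand and Avp at 130580620 to 130582554 on the minus strand, and both have 3 exons. The 36 bases that encode the hormone (9 codons) and the 3 codons after it, from the longest open reading frame of the GENCODE M21 transcripts, were identical at 31 positions, with capitals at the 5 that differ:
Oxt: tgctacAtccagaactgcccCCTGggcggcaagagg
Avp: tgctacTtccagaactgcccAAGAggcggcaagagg
The longest run shared by both coding regions was 127 bases, at transcript positions 156 to 282 of Oxt and 144 to 270 of Avp, in the part that encodes the carrier protein neurophysin:
Oxt and Avp: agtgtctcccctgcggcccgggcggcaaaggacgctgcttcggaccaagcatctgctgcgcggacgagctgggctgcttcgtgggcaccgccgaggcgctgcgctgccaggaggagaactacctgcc
A read that lies inside this run cannot be assigned to either gene, and how such reads were counted is not given in the sources used here. Trh (chromosome 6, 92242061 to 92244650, minus strand) held 5 copies of the hormone's codons, each between codons for basic pairs. The 12 bases of each copy are in capitals and the cleavage codons in lower case:
Trh copy 1: aaacgcCAGCATCCGGGCaaaagg
Trh copy 2: aaacgaCAGCACCCTGGCcgacgt
Trh copy 3: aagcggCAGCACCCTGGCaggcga
Trh copy 4: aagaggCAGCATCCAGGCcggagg
Trh copy 5: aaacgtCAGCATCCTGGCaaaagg
The 12 bases had 4 different spellings.

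Total counts ran from 1507882 to 2721287 in the 4-AP libraries and from 2355610 to 3409055 in the controls (two-sided exact permutation p = 0.2 for the means; 3 against 3 cannot go below 0.1). Levels are given as CPM, which is the count per 1e+06 of the TMM-scaled total of its library. A single count was worth between 0.357 and 0.731 CPM in 4-AP brain and between 0.259 and 0.446 CPM in control brain. A gene-level count adds linear and back-spliced reads, so no value here is that of a circular RNA. All levels and fold changes are those of RNA digested with RNase R. How much of each linear RNA the digestion left in each library was not tested. All 12 general brain markers, among them Snap25, Gfap and Mbp, had counts in the 6 libraries. In bulk RNA, fewer cells that make a peptide and less RNA in each cell cannot be told apart.

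4 of the 5 hypothalamic precursors, Oxt, Avp, Trh and Pmch, lay above every control library in all 3 4-AP libraries, and Oxt, Avp and Pmch had 0 to 3 counts in each control library. These values chose the genes and are a description. Of the 11388 genes tested, groups did not overlap in 18.8%, and in 8.36% the 4-AP libraries were the higher ones. edgeR's test called 0.843% of them, 0.334% as higher; nothing is read from these shares for the precursors. Pomc was the exception, with overlapping groups.

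Oxt had 8, 17 and 11 counts in the 4-AP libraries and 0 in each of the 3 control libraries. In CPM these were 5.21, 6.08 and 8.04 in 4-AP brain. Each 4-AP library was thus above the floor of 3 counts, which is 1.07 to 2.19 CPM in these libraries, and no read of oxytocin's gene was counted in a control. Over the groups, 36 counts against 0 gave a ratio of 19.5 when the control group was set to the floor of 3 counts. The counting error of the 36 is not in this ratio, so it is not a lower confidence limit.

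Avp had 22, 29 and 26 counts in the 4-AP libraries (14.3, 10.4 and 19.0 CPM) and 0, 3 and 0 counts in control replicates 1, 2 and 3. All control reads of the vasopressin gene were in control replicate 2, the deepest library. The ratio of the groups was 41.8, with a 95% counting interval of 13.8 to 207. The fitted log2 fold change was 5.28 (SE 0.68); it was 8.004 without control replicate 2 and 4.75 without control replicate 1.

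Trh had 35, 52 and 28 counts in the 4-AP libraries, against 3, 10 and 1 in the control libraries. Its levels were 22.8, 18.6 and 20.5 CPM in 4-AP brain, against 0.943, 2.59 and 0.446 CPM in control brain. The 4-AP libraries differed little among themselves, and the lowest of them was well above the highest control. The means were 20.6 ± 2.12 and 1.33 ± 1.12 CPM in 4-AP and control brain (SD, n = 3 each), and the fitted log2 fold change was 3.76 (SE 0.45), or 4.72 without control replicate 2.

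Pmch had 6, 14 and 8 counts in the 4-AP libraries, against 1, 0 and 0 in the control libraries. It fell below the filter on low counts and has no fitted fold change; 28 counts against 1 gave a ratio of 45.6 (95% counting interval 7.53 to 1863). On chromosome 10 (88091072 to 88092375), 58.1% of its exonic bases also lie in exons of Parpbp, a gene on the opposite strand, and the strand setting of the counts is not given. Parpbp itself had 1, 0 and 1 counts in the 4-AP libraries, against 3, 3 and 2 in the controls. Its ratio of summed counts was 0.407 (95% counting interval 0.0421 to 2.04). The part of Parpbp reads in the Pmch counts was not tested. None of the other 9 precursors shared exonic bases with another gene.

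The mix of these 4 hormones in the 4-AP libraries was as follows. Trh made up 49.3% (Wilson 95% interval 38.01 to 60.7), 46.4% (37.5 to 55.6) and 38.4% (28.0 to 49.8) of their summed counts in replicates 1, 2 and 3. Avp made up 31.0%, 25.9% and 35.6%, Oxt 11.3%, 15.2% and 15.1%, and Pmch 8.45%, 12.5% and 11.0%. With so few counts the intervals are wide, and they cover counting error only. The summed level of the 4 genes was 46.3, 40.0 and 53.4 CPM in the 4-AP libraries, against 1.26, 3.37 and 0.446 CPM in the controls.

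**Figure D1:**
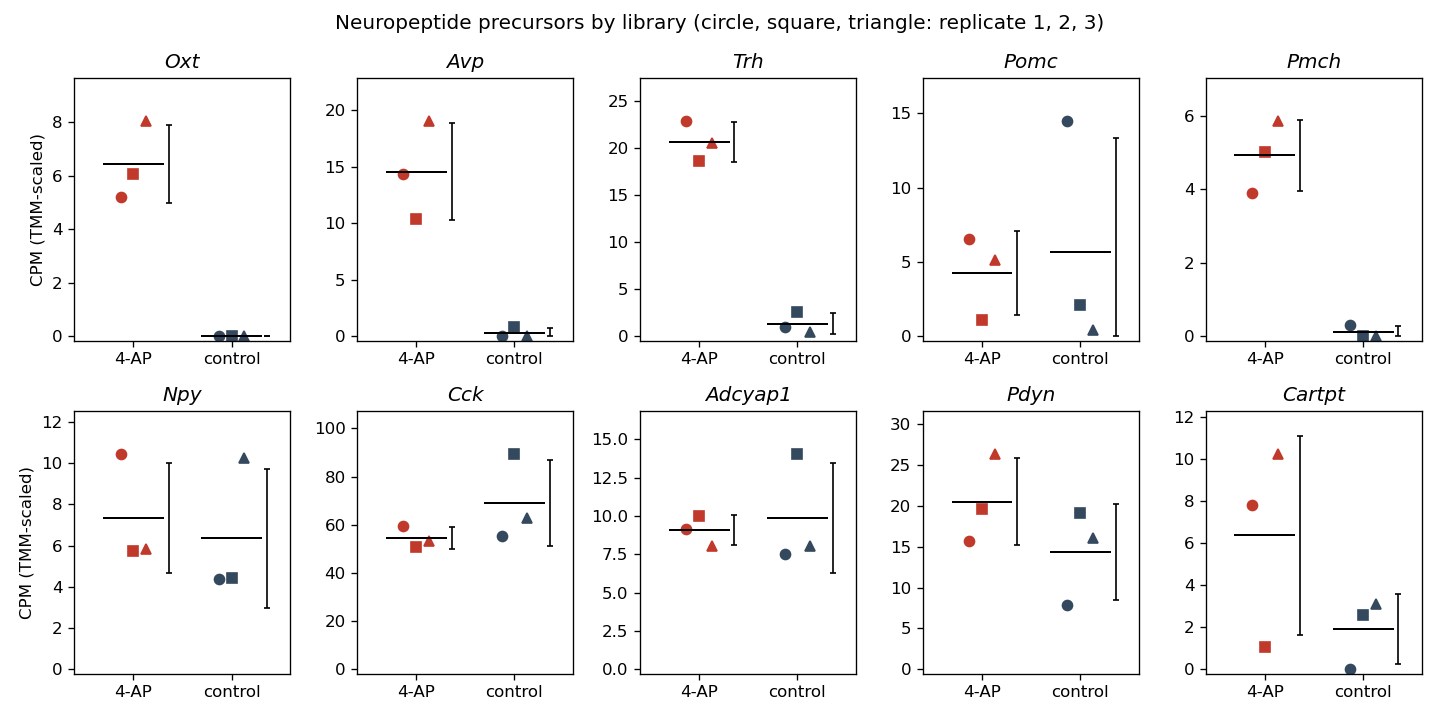
Levels of the 10 precursors in CPM (vertical axes, linear) in the 4-AP and control libraries. Points are libraries, lines are means and bars are SDs (n = 3, ending at 0 at the lowest); Oxt, Avp, Trh and Pmch show no overlap between groups, while Pomc is highest in control replicate 1.

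Pomc, the precursor of corticotropin, melanocyte-stimulating hormone and beta-endorphin, had 10, 3 and 7 counts in the 4-AP libraries, against 46, 8 and 1 in the controls. In CPM these were 6.52, 1.07 and 5.12 in 4-AP brain and 14.5, 2.08 and 0.446 in control brain, so that control replicate 1 held most of the control signal. The fitted log2 fold change was -0.60 (SE 1.14), and it was 1.44 without control replicate 1. Gh, the growth hormone gene of the anterior pituitary, was also high in control replicate 1. It had 32, 13 and 7 counts in the 4-AP libraries, against 49, 1 and 5 in the controls. The 10 other pituitary markers together had 6, 2 and 4 counts in the 4-AP libraries, against 4, 0 and 0 in the controls; Ghrhr, the receptor gene for growth hormone-releasing hormone, had 0 counts in each library. The summed pituitary list ranged from 5.36 to 24.8 CPM in 4-AP brain and from 0.259 to 16.7 CPM in control brain, and its part in the Pomc values was not tested.

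**Figure D2:**
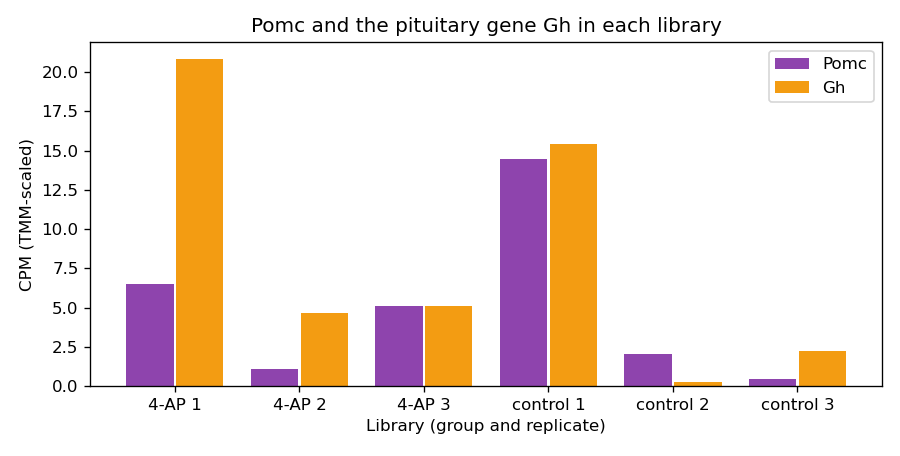
Pomc and Gh levels in CPM (vertical axis, linear, from 0) in each library (horizontal axis). Control replicate 1 has the highest Pomc level, 14.5 CPM, beside 15.4 CPM of Gh, and 4-AP replicate 1 has the highest Gh level, 20.9 CPM.

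The widely expressed precursors did not separate the groups: all 5 overlapped. Cck, the most abundant of the 10 per kilobase of exon, had 91, 142 and 73 counts in the 4-AP libraries, against 176, 344 and 141 in the controls. Its levels were 59.3, 50.7 and 53.4 CPM in 4-AP brain against 55.3, 89.2 and 62.9 CPM in control brain; control replicate 1 lay within the 4-AP range. The log2 fold change was -0.35 (SE 0.20), and -0.10 without control replicate 2.

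Pdyn, which encodes the dynorphins that act on kappa opioid receptors, had 24, 55 and 36 counts in the 4-AP libraries, against 25, 74 and 36 in the controls. The means were 20.5 ± 5.39 CPM in 4-AP brain and 14.4 ± 5.85 CPM in control brain (SD, n = 3 each), with a log2 fold change of 0.50 (SE 0.32). Control replicate 1 was the lowest library, at 7.86 CPM, and the fold change was 0.20 without it. The summed level of 8 striatal markers was 714 to 1094 CPM in the 4-AP libraries, against 138, 749 and 1279 CPM in control replicates 1, 2 and 3. The part of the striatal markers in the Pdyn values was not tested.

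Npy had 16, 16 and 8 counts in the 4-AP libraries, against 14, 17 and 23 in the controls. At 7.33 ± 2.69 CPM in 4-AP brain and 6.36 ± 3.38 CPM in control brain (SD, n = 3 each) the difference was smaller than the spread, with a log2 fold change of 0.23 (SE 0.46) that was -0.09 without 4-AP replicate 1. Adcyap1, the precursor of PACAP, had 14, 28 and 11 counts in the 4-AP libraries, against 24, 54 and 18 in the controls. Its means were 9.06 ± 0.98 CPM in 4-AP brain and 9.86 ± 3.60 CPM in control brain (SD, n = 3 each), and its log2 fold change of -0.13 (SE 0.36) became 0.25 without control replicate 2. Neither gene differed between the groups by more than its standard error.

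Cartpt had 12, 3 and 14 counts in the 4-AP libraries, against 0, 10 and 7 in the controls. It too fell below the filter on low counts. Its levels were 7.82, 1.07 and 10.2 CPM in 4-AP brain against 0, 2.59 and 3.12 CPM in control brain, so 4-AP replicate 2 lay below 2 of the controls. The ratio of summed counts was 2.78 (95% counting interval 1.48 to 5.39); this interval does not include the spread between libraries.

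Divided by exonic length, the order of the precursors differed between the groups. This is the order in RNA digested with RNase R, and whether it holds for undigested RNA was not tested. In 4-AP brain Cck was first at 41.7 ± 3.37 CPM per kilobase, followed by Avp at 25.2 ± 7.497, Trh at 14.9 ± 1.53, Npy at 12.9 ± 4.74 and Oxt at 12 ± 2.70 (SD, n = 3 each). Cck lay above Avp, and Avp above Trh, in every library, while Trh, Npy and Oxt overlapped as neighbours in the order. Pdyn (7.11), Pmch (6.57), Cartpt (4.99), Pomc (3.21) and Adcyap1 (2.40 CPM per kilobase) followed, each overlapping its neighbour. In control brain Cck was first at 53.0 ± 13.6 CPM per kilobase and Npy second at 11.2 ± 5.98 (SD, n = 3 each), each above its next neighbour in every library. Pdyn (4.98), Pomc (4.29), Adcyap1 (2.61) and Cartpt (1.49 CPM per kilobase) came next. Trh (0.959), Avp (0.450), Pmch (0.140 CPM per kilobase) and Oxt, at 0, were the last 4, and all neighbours from Pdyn down overlapped.

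The promoters are shown for the 3 hormones with the largest fitted differences and for Cck, the precursor with the highest level per kilobase in both groups. The RefSeq table (GRCm38.p6) had a promoter for all 10 genes. The 250 bases before each start were searched on both strands for TGACG, the half-site of the cyclic AMP response element TGACGTCA. They were also searched for TGACC, a nuclear receptor half-site, and for TATAAA. A further search was for TGANTCA, a loose form of the AP-1 site in which N is any base. Matches other than the full response element are in capitals:
Oxt, chr2:130575919-130576168, plus strand: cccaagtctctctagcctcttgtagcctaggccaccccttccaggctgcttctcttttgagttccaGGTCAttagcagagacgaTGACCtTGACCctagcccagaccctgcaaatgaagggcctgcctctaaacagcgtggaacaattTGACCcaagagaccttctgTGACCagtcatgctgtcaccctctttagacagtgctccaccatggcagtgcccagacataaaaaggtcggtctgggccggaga
Avp, chr2:130582589-130582838, minus strand: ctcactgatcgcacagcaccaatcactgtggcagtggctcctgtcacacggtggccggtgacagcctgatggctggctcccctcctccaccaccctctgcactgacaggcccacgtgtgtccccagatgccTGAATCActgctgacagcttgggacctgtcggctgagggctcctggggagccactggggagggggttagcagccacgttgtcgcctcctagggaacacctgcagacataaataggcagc
Trh, chr6:92244651-92244900, minus strand: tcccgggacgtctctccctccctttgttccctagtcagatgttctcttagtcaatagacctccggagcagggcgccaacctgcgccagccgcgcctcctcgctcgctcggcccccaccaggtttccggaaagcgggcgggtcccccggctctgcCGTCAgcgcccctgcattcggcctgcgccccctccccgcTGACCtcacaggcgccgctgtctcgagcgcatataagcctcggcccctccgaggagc
Cck, chr9:121495695-121495944, minus strand: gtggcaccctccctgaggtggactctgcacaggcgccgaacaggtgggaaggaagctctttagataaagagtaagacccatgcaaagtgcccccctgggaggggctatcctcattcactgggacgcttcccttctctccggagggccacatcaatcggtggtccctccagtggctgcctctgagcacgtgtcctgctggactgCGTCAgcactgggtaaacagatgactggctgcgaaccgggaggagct
The Oxt promoter held 5 matches to TGACC, 4 of them reading with the gene, and at least 1 match is present in 35.2% of the 32851 RefSeq promoters over the same window. The Avp promoter held 1 match to the loose form TGANTCA, with A at N (6.75% of promoters, with any base at N). TGACG occurred once in both the Trh and the Cck promoter (17.8% of promoters). The full response element TGACGTCA, of which TGACG is a part, was found in 1 of the 10 genes, Cartpt, and in 1.55% of promoters. A match is a description of these letters and shows no binding.

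The receptors of these peptides were set beside them, as a list drawn up with the earlier results known. Of 20 receptor genes, 9 had enough counts to be tested; 0 were higher and 1 was lower, against 0.334% higher and 0.509% lower of all genes tested. The median log2 fold change of the 9 was -0.04, against -0.008 for all genes tested. Vipr1, a receptor for VIP and PACAP, was at 14.7 ± 1.995 CPM in 4-AP brain and 32.2 ± 0.99 CPM in control brain (SD, n = 3 each). It fell by 1.15 on the log2 scale (SE 0.24, edgeR quasi-likelihood adjusted p = 0.0207), lower in 3 of 3 4-AP libraries, and, of the 6 fits that each left out a library, passed in the 1 without control replicate 1 (highest adjusted p = 0.0843 by the same edgeR test). The main PACAP receptor gene, Adcyap1r1, had 158 ± 8.53 CPM in 4-AP brain and 162 ± 42.8 CPM in control brain (SD, n = 3 each).

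The opioid receptor genes Oprk1 (log2 1.36, SE 0.46, edgeR adjusted p = 0.160) and Oprm1 (0.86, SE 0.36, edgeR adjusted p = 0.272) did not pass. Npy2r, a presynaptic neuropeptide Y receptor, was at 1.24 (SE 0.53, edgeR adjusted p = 0.280) and did not pass either. Cckbr, the main cholecystokinin receptor of the brain, was at -0.67 (SE 0.23, edgeR adjusted p = 0.161). Of the 20 receptor genes, the 4-AP libraries lay above every control in 4 and below in 2, where groups of all genes tested did not overlap in 8.36% (higher) and 10.4% (lower). These shares are not a like comparison, because only 9 of the 20 receptor genes were tested. Npy1r was at -0.52 (SE 0.38) and the oxytocin receptor gene Oxtr at 0.41 (SE 0.52), both with overlapping groups. Trhr, a receptor for thyrotropin-releasing hormone and chosen after its values were seen, was too low to be tested, with 10, 23 and 3 counts in the 4-AP libraries, against 2, 5 and 3 in the controls. Of the vasopressin receptor genes, Avpr1b and Avpr2 had 0 counts in each library and Avpr1a had at most 2; no difference in these genes could be detected at such counts.

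Other hypothalamic peptide precursors were scarce. Of 20 listed genes, 12 had any count and 0 passed the filter, so none was tested. Hcrt, which encodes the orexins of the lateral hypothalamus, had 4, 7 and 8 counts in the 4-AP libraries and 0 in each control. With the control group set to 3 counts, the ratio of Hcrt over the groups was 10.3, which is not a lower confidence limit. Gal, the galanin gene, had 1, 2 and 5 counts in the 4-AP libraries against 0 in each control, most of them in 4-AP replicate 3. Both were chosen after their values were seen. With Qrfp, at 2, 1 and 1 counts against 0 in each control, they were the 3 of 20 genes without overlap between groups. Of all genes tested, 8.36% were higher in this way. That share cannot serve as a comparison here, because 0 of these 20 genes had enough counts to be tested. Crh, the corticotropin-releasing hormone gene, had 1, 11 and 3 counts in the 4-AP libraries, against 4, 12 and 7 in the controls, and its groups overlapped.

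Of 12 other widely expressed precursors, 4 were tested and 0 passed, against 0.334% higher and 0.509% lower of all genes tested. With shares this small, 0 of 4 does not set these genes apart. Sst, the somatostatin gene, had 49.9 ± 13.5 CPM in 4-AP brain and 42.9 ± 6.72 CPM in control brain (SD, n = 3 each). Tac1, the substance P precursor, was at 1.17 (SE 0.63), Penk, the enkephalin precursor, at 0.60 (SE 0.94) and Vip at -0.55 (SE 0.36) on the log2 scale. Penk and Tac1 are abundant in striatum, and both had their lowest level of the 6 libraries in control replicate 1; the log2 fold change of Penk was 0.06 without that library. The median of the 4 was 0.41.

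Of the enzymes that cut and trim the precursors, 0 of 11 tested genes passed in either direction. Of all genes tested, 0.334% were called higher and 0.509% lower, so 0 of 11 does not set the enzymes apart. Their median log2 fold change was -0.02. Pcsk2, prohormone convertase 2, was at -0.26 (SE 0.14) and Pcsk1 at -0.17 (SE 0.22). Cpe, the carboxypeptidase that removes the basic residues after cleavage, had 476 ± 23.8 CPM in 4-AP brain and 483 ± 78.7 CPM in control brain (SD, n = 3 each). The helper proteins Scg5 and Pcsk1n were at 0.38 (SE 0.19, edgeR adjusted p = 0.369) and 0.35 (SE 0.17, edgeR adjusted p = 0.371).

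**Figure D3:**
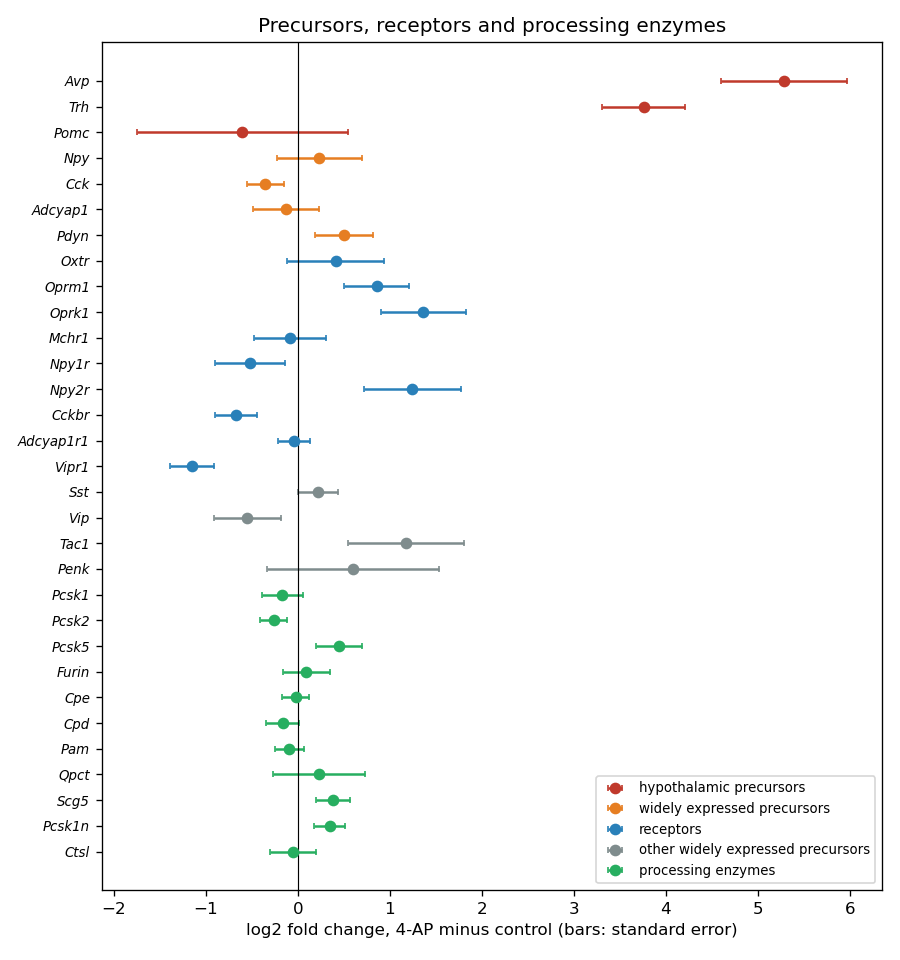
Fitted log2 fold changes, 4-AP minus control (horizontal axis, bars are standard errors), of tested precursors, receptors and processing enzymes. Avp (5.28) and Trh (3.76) stand to the right of every other gene plotted; Oxt, at 0 counts in the controls, and genes below the filter are not plotted.

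Markers of brain regions also differed between these libraries. Of 16 hypothalamic transcription factor genes, 13 had any count. Their summed level was 25.4, 23.2 and 40.9 CPM in the 4-AP libraries, against 8.49, 7.52 and 6.69 CPM in the controls, without overlap. Isl1 and Six3 had the most 4-AP counts, 38 each, against 9 and 11 over the controls. The 4-AP libraries lay above every control in 5 of the 16 genes and below in 0. Of all genes tested, 8.36% were higher and 10.4% lower in this way. These shares are not a like comparison, because only 1 of the 16 genes had enough counts to be tested. Nkx2-1 overlapped (2, 1 and 5 counts against 1, 3 and 4). Tbx3 overlapped as well, with more counts in the controls (6, 2 and 1 against 14, 7 and 2). Isl1, the 1 member tested and a factor that striatal neurons use as well, was at 2.87 (SE 0.69, edgeR adjusted p = 0.0540) and did not pass; over the 6 fits that each left out a library its edgeR adjusted p was 0.0348 (without 4-AP replicate 2, the 1 fit in which it passed) to 0.306 (without 4-AP replicate 3). Its log2 fold change was 4.12 without control replicate 2. Fezf1 had 4, 3 and 3 counts in the 4-AP libraries and Nkx2-4 had 2, 7 and 1, with 0 in each control for both; they were chosen after their values were seen. Sim1, needed for oxytocin and vasopressin neurons to form, had 4, 0 and 4 counts in the 4-AP libraries and 0 in each control. Otp, needed for the same neurons, had 0 in each 4-AP library, against 1, 0 and 0 in the controls. Rax, Hmx2 and Hmx3 had 0 counts in each library.

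Cortical excitatory neuron markers moved the other way. Their summed level was 1184, 904 and 861 CPM in the 4-AP libraries, against 1687, 1606 and 1709 CPM in the controls. All 10 genes were tested, 3 fell and 0 rose by edgeR's test, against 0.509% lower and 0.334% higher of all genes tested, and the median log2 fold change was -0.79. Those that fell were Slc17a7, the cortical glutamate transporter gene (-0.79, SE 0.15, edgeR adjusted p = 0.0142), the synaptic gene Nrgn (-0.79, SE 0.17, edgeR adjusted p = 0.0333) and the transcription factor gene Neurod2 (-0.96, SE 0.22, edgeR adjusted p = 0.0379), each lower in 3 of 3 4-AP libraries. The count was 1 without 4-AP replicate 2 and 0 without 4-AP replicate 3, control replicate 2 or control replicate 3, in fits chosen after seeing the data. Of the 12 general brain markers, 1 fell and 0 rose: Slc1a2, the main astrocyte glutamate transporter gene, had 1132 ± 94.4 CPM in 4-AP brain and 1748 ± 40.4 CPM in control brain (SD, n = 3 each; log2 -0.63, SE 0.14, edgeR adjusted p = 0.0328), lower in 3 of 3 4-AP libraries. In these added fits the count of falls stayed at 1 when 4-AP replicate 2 or control replicate 1 was left out, and was 0 when any other library was. The neuron marker Rbfox3 was at -0.65 (SE 0.17, edgeR adjusted p = 0.0604), and Cx3cr1, a microglial receptor gene, was at 0.57 (SE 0.14, edgeR adjusted p = 0.0593); neither passed. Thalamic markers overlapped, at 59.98, 162 and 183 CPM in the 4-AP libraries, against 174, 35.0 and 37.0 CPM in the controls. Choroid plexus markers were at 15.6, 80.8 and 40.9 CPM in the 4-AP libraries, against 9.74, 3.89 and 13.4 CPM in the controls, without overlap. Few genes carried these sums. Ttr gave 154 of the 226 counts in 4-AP replicate 2, and Aqp1 gave 21 of the 56 in 4-AP replicate 3. Interneuron markers, which mark many cells that make Npy, Cck and Sst, overlapped at 445 to 645 CPM in 4-AP brain and 490 to 583 CPM in control brain. The part of the region markers in the hormone values was not tested, and a difference in the tissue taken and an effect of 4-AP on these genes cannot be told apart from these labels.

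**Figure D4:**
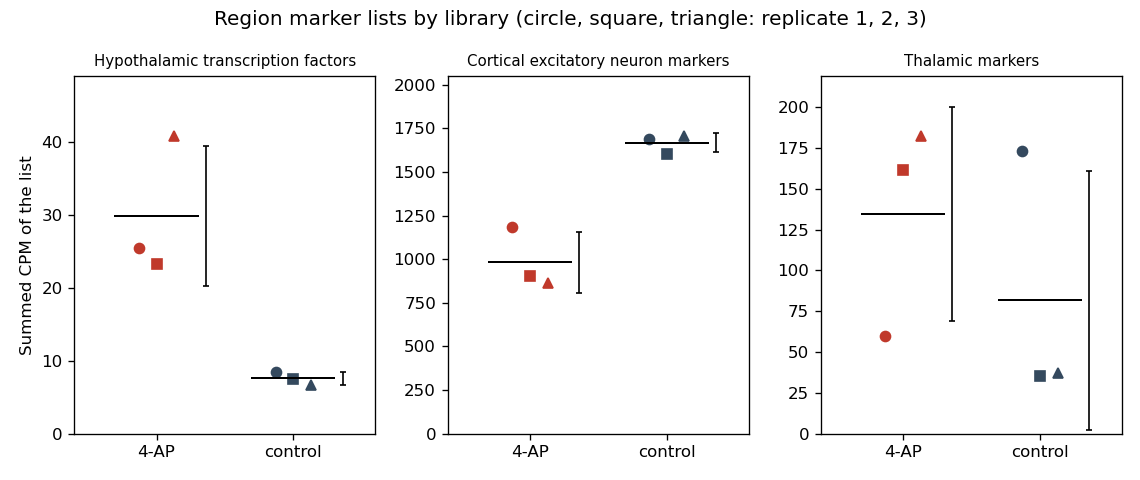
Summed CPM (vertical axes, linear, from 0) of hypothalamic transcription factor genes, cortical excitatory neuron markers and thalamic markers in 4-AP and control libraries. Points are libraries, lines means and bars SDs (n = 3); the first 2 lists do not overlap between groups and the thalamic markers do.

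Across the 6 libraries the log2 levels of Oxt, Avp and Trh followed each other, with Pearson's r of 0.98 for Oxt and Avp, 0.96 for Oxt and Trh and 0.99 for Avp and Trh. These values rest mostly on the difference between the groups, share library depth, and are a description over 6 points. Pomc followed none of them (r from 0.08 to 0.13). Cck and Adcyap1 were at r = 0.77 with each other. Among 9220 other genes, those most like Oxt were Nalcn (r = 0.999), Zcchc12 (0.991) and Cyb5r1 (0.989). Lin28b was first for both Avp and Trh (r = 0.995 with each), and Zfp260, Creg2 and the convertase gene Pcsk2 were first for Cck (r = 0.982, 0.982 and 0.976). With so many genes and 6 libraries, values of this size are found for most of the precursors: the first gene for each of the 8 fitted ones was at r = 0.972 or above.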

How the data were processed

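RNA of mouse brain was sequenced in 3 4-AP and 3 control libraries. The authors deposited a table of unnormalized counts for each library. Per the submitters' processing notes they used STAR 2.5.3a, featureCounts and mm10. For the annotation, the strand setting and multi-mapping reads, the choice is not given in the sources used here. Of 55604 identifiers, 54723 matched GENCODE M21 without their version. The members and all gene lists were chosen with earlier results of these data known.

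Genes were filtered with filterByExpr (minimum count 10, minimum total 15), which kept 11388, among them 8 of the 10 precursors. Scaling was TMM (trimmed mean of M-values), and the test was that of edgeR 4.0.16 in R 4.3.3 (quasi-likelihood, robust, group as the only term, Benjamini-Hochberg adjustment, threshold 0.05). The procedure was also run on counts simulated from its own fitted dispersions. These hold no outlying library, so they cannot show how the procedure handles one. Log2 fold changes are 4-AP minus control, and their standard errors come from the quasi-likelihood F. Ratios of summed counts have exact 95% intervals, which cover counting error only. Where the controls had 0 counts, the control group was set to the floor of 3 counts, and that ratio has no interval. The series text calls the tissue paired without saying how, so the replicate block is an alternative. p-values measure the spread between these libraries, which may be technical. Every pair of libraries differed by more than sampling noise (chi-square per degree of freedom 7.79 or more), so each was kept. All 10 precursors were to be named, and of each list the called genes and up to 3 per direction with the smallest p. Alternatives were other scalings, DESeq2 1.42.0, limma-voom (limma 3.58.1), other filters, no robust fit, a replicate block and each library left out.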

Additional observations from a re-analysis of the deposited data

How the results depend on the processing

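The number of genes called depended on the processing. In place of 96 genes (38 higher and 58 lower), total counts alone gave 319 (26 higher, 293 lower) with a median over all genes of -0.22 (log2), DESeq2 gave 193 (82 higher, 111 lower), no filter on low counts 328 (131 and 197) and no robust fit 55 (25 and 30). Leaving out 1 library at a time gave 26 to 159 genes, 16 to 105 higher and 10 to 54 lower. The call of Vipr1 made the receptor count 1, which was 0 to 1 in these fits; its DESeq2 adjusted p was not given by the tool. The hypothalamic transcription factor count, 0, became 1 through Isl1 with total counts only, without the filter and when a CPM over 1 was asked of 3 libraries, and was 0 to 1 over the fits without a library. The count of other hypothalamic precursors became 1, through Hcrt, with no filter (adjusted p = 0.00894 by edgeR's test) and with a CPM above 1 in 3 libraries (0.0308).

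With the replicate number as a block, 265 genes were called (112 higher, 153 lower) and Isl1 added 1 transcription factor (adjusted p = 0.0490 by edgeR's test). Deviations of libraries with the same number correlated at -0.002, 0.113 and 0.025. Those of libraries with different numbers correlated at -0.101 to 0.064. As deviations from means of 3 libraries, these values cannot rule pairing out. The series text calls the tissue paired, but no label says what libraries of one number share, so the main fit has no block. The number of cortical markers that fell, 3, was 7 with total counts, 6 with no filter or with the block, 1 with no robust fit and 0 to 4 without a library, in fits chosen after seeing the data; that of general brain markers, 1, was 2 with total counts, DESeq2, no filter or the block, 0 with no robust fit and 0 to 1 without a library. The cause was not tested for any of these changes. The log2 fold changes of Avp and Trh stayed above 0 in all 15 alternatives. Both genes were chosen by these counts and their groups lie far apart, so the sign could hardly change. Nothing further is read from it. Depth limits the vasopressin receptors, Pmch and most hypothalamic genes listed.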
